A study of Rattus norvegicus with 31 samples.

Results

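The endocannabinoid genes Cnr1, Dagla, Mgll, Faah and Napepld were examined in the CA3 region of aged rats that had just been trained in a water maze. Every probeset that the array annotation maps to 1 of these symbols alone was taken, whatever its values. That gave 7 of the 16204 probesets, covering 3 of the 5 genes, with 2 probesets for Cnr1, 3 for Mgll and 2 for Faah. The deposited table holds only part of the array's probesets. None of them was named Dagla or Napepld, and both genes are not analysed here.

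A probeset is a group of short probes against 1 stretch of a transcript, and its signal rises with the amount of that mRNA. The 31 arrays each held CA3 RNA of 1 male Long-Evans rat aged 24 to 26 months, dissected by hand and pooled over both hemispheres. Rats were aged unimpaired (AU) or aged impaired (AI) by a learning index from earlier water maze testing. Each then had 8 trials with a visible platform in a new maze. In the spatial protocol (S) the platform stayed in place among extramaze cues, and in the non-spatial protocol (NS) it was moved and the cues were removed. The rats were killed roughly 2 hours from the start of the task. The groups were AU-S (8 rats), AI-S (8), AU-NS (8) and AI-NS (7, after the authors removed 1 array), and AU-act (16) and AI-act (15) pool both protocols. No untrained or young rats are analysed here. Groups were compared with limma, a linear model for each probeset that shares information on variance across probesets. A probeset was called at a Benjamini-Hochberg adjusted p, over all probesets, under 0.05 with both protocols pooled and under 0.1 in the smaller comparisons and the interaction.

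Endocannabinoids are lipid messengers that neurons make on demand and that act backwards across the synapse. In the hippocampus Dagla, the diacylglycerol lipase alpha of dendrites and spines, makes 2-arachidonoylglycerol (2-AG) when calcium rises or Gq-coupled receptors are active. 2-AG reaches the CB1 receptor, encoded by Cnr1, on the axon terminals, where CB1 lowers transmitter release through Gi/o proteins and presynaptic calcium channels. CB1 is best known for its high density on terminals of cholecystokinin (CCK) basket cells, with lower amounts on glutamatergic terminals. Mgll encodes monoacylglycerol lipase, which breaks down 2-AG. Napepld and Faah encode the enzymes that respectively make and degrade anandamide, the other main endocannabinoid.

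CA3 markers were present, together with some markers of its neighbours. Of 9 CA3 pyramidal markers 7 were measured, among them Grik4, Bok and Cpne4, and their mean signal lay between 11.08 and 11.31 in AU-act arrays and between 10.84 and 11.36 in AI-act arrays (log2). Dentate granule cell markers were represented by 2 of 8 genes, Prox1 and Calb1, and 5 of 6 CA1 markers were also present. Array medians ranged from 8.97 to 9.14. Each array also reads Gapdh and beta-actin transcripts near their 3′ end and again near their 5′ end. The 3′ reading exceeded the 5′ reading by 1.45 ± 0.10 (SD, n = 16) in AU-act arrays and by 1.59 ± 0.13 (SD, n = 15) in AI-act arrays (two-sided permutation test, p = 0.00052). A wider 3′ to 5′ excess points to shorter RNA on the array.

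Cnr1 was higher in AU-act rats at 1 of its 2 probesets, and it was the only member gene with a call in any comparison. The call was made at 1387674_at. Its log2 signal in the 16 AU-act arrays ran from a lowest value of 9.28 through a median of 9.83 to a highest value of 10.24. In the 15 AI-act arrays it ran from 8.80 through 9.43 to 9.91. The groups overlapped: 15 of 16 AU-act arrays were above the AI-act mean, 6 were above the highest AI-act array, and 4 of 15 AI-act arrays were below the lowest AU-act array.

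The means of 1387674_at were 9.84 ± 0.23 (SD, n = 16) in AU-act and 9.45 ± 0.30 (SD, n = 15) in AI-act rats. The difference was 0.39 on the log2 scale (SE 0.09, 95% confidence interval 0.20 to 0.57), or 1.31-fold, with a limma adjusted p of 0.00936. It was called with 5.51% of all probesets, and 5% of all probesets were called as higher in AU-act rats. It was the 1 member probeset called of 7. More CB1-expressing cells and more Cnr1 mRNA per cell in AU-act rats cannot be told apart in dissected tissue. Nor can either be told apart from the RNA controls, which also moved with phenotype.

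**Figure D1:**
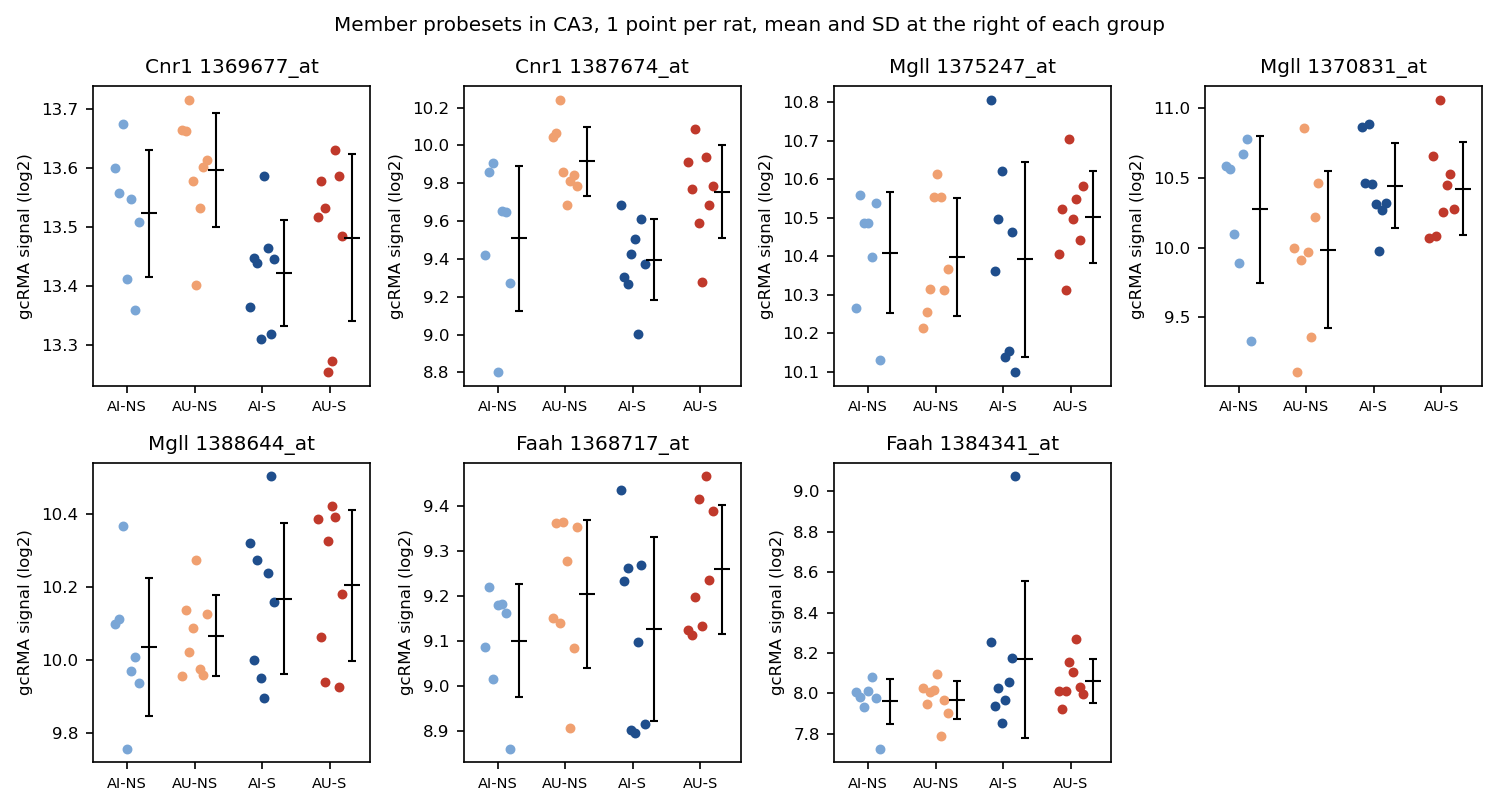
Signal of the 7 member probesets (vertical axes, gcRMA log2, each with its own range and not starting at 0) in the AI-NS, AU-NS, AI-S and AU-S groups, with 1 point per rat and the mean and SD at the right of each group. At Cnr1 1387674_at the AU groups lie above the AI groups with overlap, and at Faah 1384341_at 1 AI-S array stands at 9.07 above the others.

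The probeset difference at 1387674_at was of similar size after both protocols. After S training the AU-S arrays ran from 9.28 through a median of 9.78 to 10.08, and the AI-S arrays from 9.00 through 9.40 to 9.68. Of the 8 AU-S arrays, 6 were above the highest AI-S array. The difference was 0.36 (SE 0.11, unadjusted p = 0.00438 and adjusted p = 0.183 with limma), which missed the threshold of 0.1 that 0.413% of all probesets passed.

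After NS training the AU-NS arrays ran from 9.69 through 9.85 to 10.24 and the AI-NS arrays from 8.80 through 9.65 to 9.91. All 8 AU-NS arrays were above the AI-NS mean, and 5 of the 7 AI-NS arrays were below the lowest AU-NS array. The difference was 0.41 (SE 0.14, unadjusted p = 0.0107 and adjusted p = 0.277 with limma). Both within-protocol comparisons use the same rats as the pooled one and are not further evidence for it. The difference of the differences, S minus NS, was -0.05 (SE 0.18, 95% confidence interval -0.42 to 0.32) and was not called.

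The brighter Cnr1 probeset, 1369677_at, gave values close together in all groups. It was among the brightest probesets of the table, at percentile 98.3 of the mean signal. Its log2 signal ran from 13.25 through a median of 13.58 to 13.72 in AU-act arrays and from 13.31 through 13.45 to 13.67 in AI-act arrays. Most arrays of both groups shared 1 range, with 1 AU-act array above the highest AI-act array. Even so, 13 of 16 AU-act arrays were above the AI-act mean. The AU-act minus AI-act difference was 0.07 (SE 0.04, 95% confidence interval -0.02 to 0.16, adjusted p = 0.408 with limma), and it was 0.06 after S and 0.07 after NS training.

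The 2 Cnr1 probesets differed from each other in their phenotype difference. Within each array the signal of 1387674_at minus that of 1369677_at averaged -3.70 ± 0.14 (SD, n = 16) in AU-act and -4.02 ± 0.29 (SD, n = 15) in AI-act rats. That gap was 0.32 smaller in AU-act rats (two-sided permutation test over arrays, p = 0.00022, adjusted over 5 pairs of probesets p = 0.0011). It was 0.30 smaller after S training (exact permutation test, p = 0.0172, adjusted p = 0.0862) and 0.34 smaller after NS training (exact permutation test, p = 0.0155, adjusted p = 0.0777). At the brightest probeset of each gene no member was called.

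**Figure D2:**
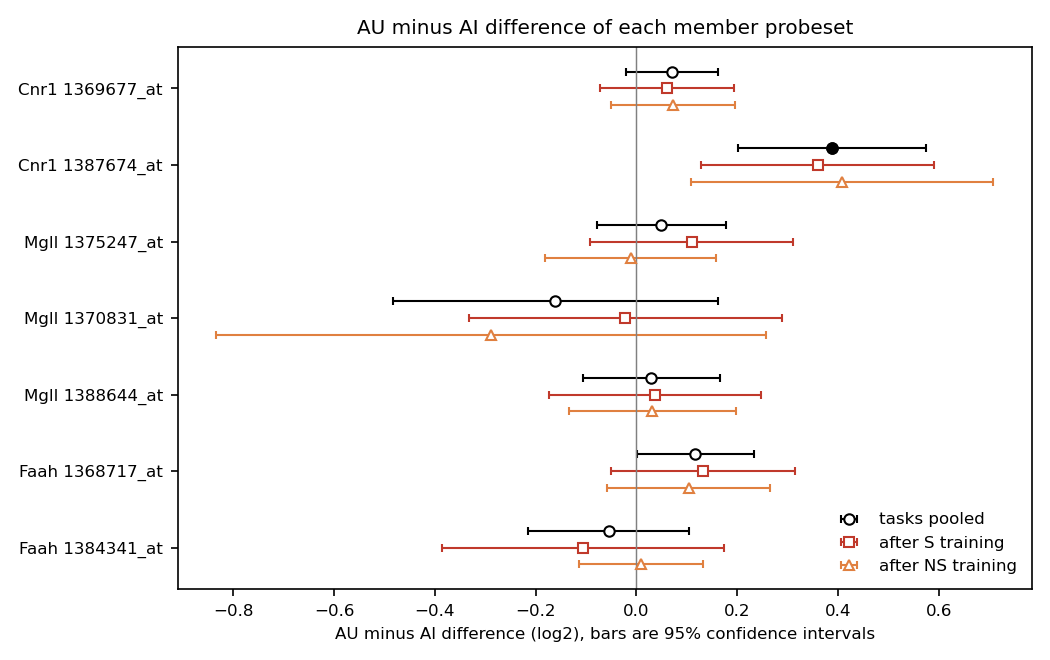
AU minus AI difference (horizontal axis, log2) of each member probeset with its 95% confidence interval, for both protocols pooled, after S and after NS training. The filled point marks the call, Cnr1 1387674_at pooled at 0.39, and the other intervals of the pooled comparison reach to or near 0.

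The called Cnr1 probeset also followed the RNA controls from array to array. With group means removed, its signal correlated with the 3′ excess of Gapdh and beta-actin over the 31 arrays at Pearson's r = -0.62 (permutation p = 0.00268, adjusted p = 0.0255) and Spearman's rho = -0.73 (permutation p = 3e-05, adjusted p = 0.000285). Without the 2 arrays farthest from the median of the control difference r was -0.57. With the hexokinase controls, which were read the same way, r was -0.74 (permutation p = 1e-04, adjusted p = 0.0019) and rho was -0.82 (permutation p = 1e-05, the smallest that these permutations can give, adjusted p = 0.00019). Of all probesets, 2.52% had an r with Gapdh and beta-actin as low as this probeset, and 0.444% an r with hexokinase as low.

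At 1369677_at the same correlations were -0.33 with Gapdh and beta-actin (permutation p = 0.0887, adjusted p = 0.281) and -0.28 with hexokinase (permutation p = 0.132, adjusted p = 0.282). In all, 19 relations were computed and adjusted together, 14 with the RNA controls and 5 between probesets of 1 gene. The hexokinase difference itself was 1.41 ± 0.15 (SD, n = 16) in AU-act and 1.79 ± 0.27 (SD, n = 15) in AI-act arrays (permutation test, p = 6e-05).

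**Figure D3:**
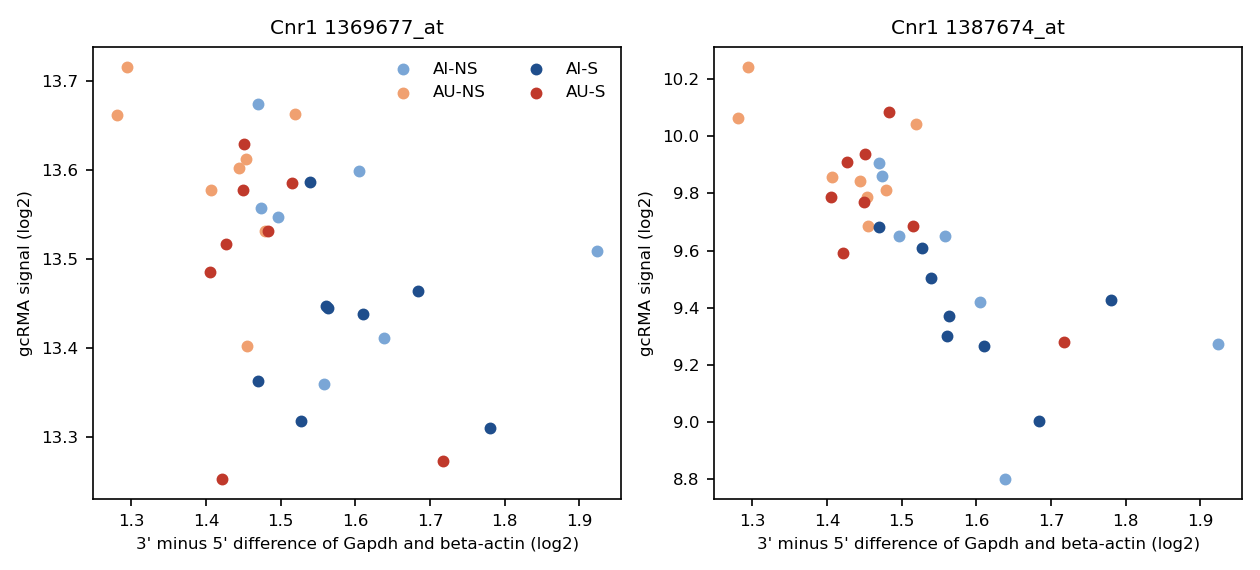
Signal of Cnr1 1369677_at and Cnr1 1387674_at (vertical axes, gcRMA log2) against the mean 3′ minus 5′ control difference, from Gapdh and beta-actin (horizontal axes, log2), 1 point per array. At 1387674_at the signal falls as the control difference rises, and most AI arrays lie at the larger control differences.

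With the Gapdh and beta-actin difference as a covariate, the AU-act minus AI-act difference of Cnr1 1387674_at was 0.17 (SE 0.09, limma adjusted p = 0.439), and with the hexokinase difference it was 0.05 (SE 0.09, adjusted p = 0.925). Neither passed the threshold. The same covariates left 1 and 0 of all 16204 probesets called in place of 893, and as the controls moved with phenotype, their parts in the difference cannot be told apart. Under the other settings the probeset kept its call, with differences from 0.36 to 0.44. With any 1 array left out it lay between 0.34 and 0.42, with adjusted p from 0.00352 to 0.0185, all below the threshold.

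**Figure D4:**
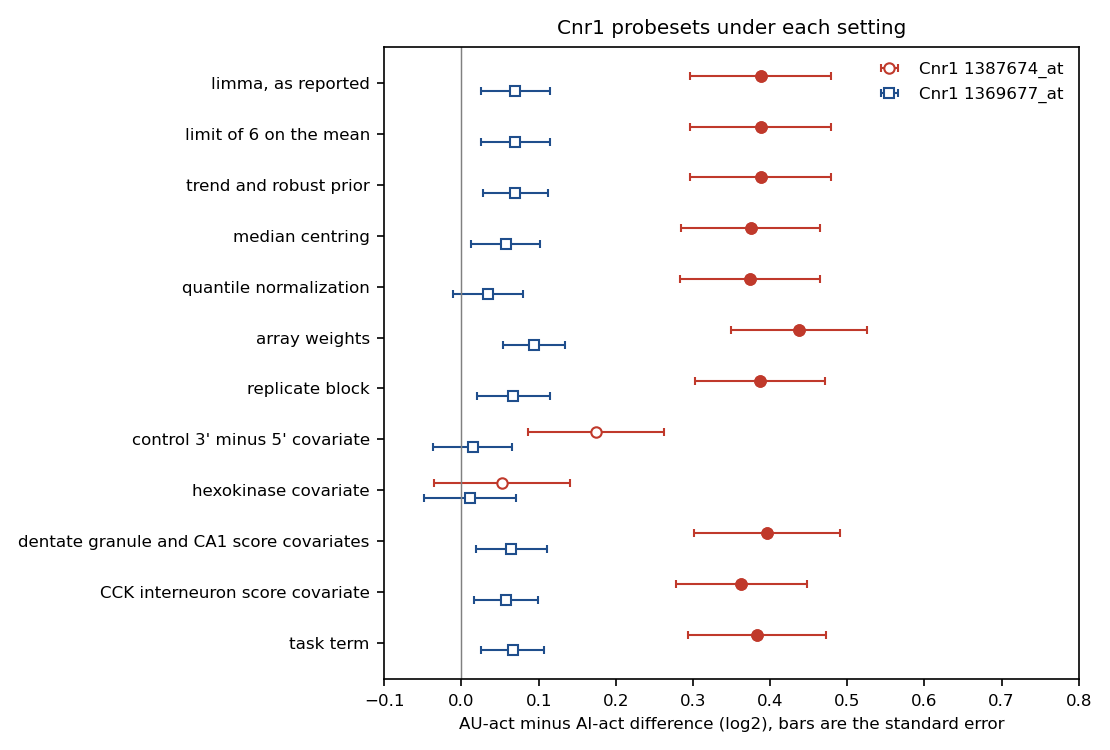
AU-act minus AI-act difference (horizontal axis, log2) of Cnr1 1387674_at (circles) and Cnr1 1369677_at (squares) under each setting (vertical axis), with the standard error. Filled points passed the adjusted p of 0.05, and 1387674_at falls to 0.17 and 0.05 with the RNA controls as covariates.

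Genes listed as markers of CCK interneurons, not all of them particular to these cells, were read beside Cnr1. Of 10 CCK interneuron markers 8 were measured, and their mean signal lay between 8.56 and 9.36 in AU-act and between 8.68 and 9.25 in AI-act arrays. Cck itself, the peptide that names these cells, differed by 0.01 (adjusted p = 0.957). Gad2, which makes GABA in all interneurons, was higher in AU-act rats by 0.48 (SE 0.14, adjusted p = 0.0391), while Gad1, the other GABA-synthesizing enzyme, differed by 0.10 (adjusted p = 0.283). Slc32a1, the vesicular GABA transporter, differed by 0.02 (adjusted p = 0.943). Vip, the peptide of another part of these cells, differed by -0.34 (SE 0.15, adjusted p = 0.203), Reln by -0.03, Npas1 by -0.01 and Dlx1 by 0.07. Of the 8 markers 5 differences were positive, with a median of 0.02, and Gad2 alone was called. With the mean of these markers as a covariate Cnr1 1387674_at kept a difference of 0.36 (SE 0.09, adjusted p = 0.00949). That mean includes Gad2 and other genes of GABA cells at large, so it does not measure CCK cells alone. Whether the amount of CCK cells had a part in the Cnr1 difference was not tested.

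The 7 measured CA3 pyramidal markers all had positive differences, with a median of 0.07, and of them Spock1 was called, at 0.27 (adjusted p = 0.0138). These counts stand beside the same 53.3% of probesets positive and 2.36% of named genes called. No measured marker of dentate granule cells (2), CA1 (5), CA2 (4), parvalbumin and somatostatin interneurons (5), astrocytes (8), oligodendrocytes (7), microglia (5) or endothelium (5) was called. Among the uncalled ones were Pou3f1 of CA1 at -0.28 (adjusted p = 0.375) and Pcp4 of CA2 at 0.24 (adjusted p = 0.162). The 2 dentate granule markers had a median difference of -0.14 pooled, of -0.45 after S training (Prox1 -0.51, adjusted p = 0.369, and Calb1 -0.39, adjusted p = 0.209) and of 0.20 after NS training. Amigo2, a CA2 marker, differed by 0.39 after S training (adjusted p = 0.190). Its difference was -0.17 after NS training (limma adjusted p = 0.543) and 0.12 pooled (limma adjusted p = 0.503), so its sign differed between protocols. With the dentate granule and CA1 scores as covariates the Cnr1 1387674_at difference was 0.40 pooled (adjusted p = 0.0102), 0.28 after S training (adjusted p = 0.798) and 0.42 after NS training (adjusted p = 0.307).

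No phenotype difference of Mgll, the enzyme that ends 2-AG signalling, was detected with both protocols pooled, at any of its 3 probesets. The brightest, 1375247_at, ran from 10.21 through a median of 10.47 to 10.71 in AU-act arrays and from 10.10 through 10.46 to 10.81 in AI-act arrays, with a difference of 0.05 (SE 0.06, 95% confidence interval -0.08 to 0.18, limma adjusted p = 0.725). The 2 groups covered nearly the same range. At 1388644_at the arrays ran from 9.93 through 10.11 to 10.42 and from 9.76 through 10.10 to 10.51, with a difference of 0.03 (95% confidence interval -0.11 to 0.17, adjusted p = 0.861). Both intervals bound the difference to less than 0.2 in either direction.

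The third Mgll probeset, 1370831_at, was the most variable member. It ran from 9.11 through 10.24 to 11.06 in AU-act and from 9.34 through 10.46 to 10.88 in AI-act arrays, with SDs of 0.50 and 0.41. Its difference was -0.16 (SE 0.16, 95% confidence interval -0.48 to 0.16, adjusted p = 0.628). The lowest arrays were of the NS groups. AU-S arrays ran from 10.07 through 10.36 to 11.06 and AU-NS arrays from 9.11 through 9.98 to 10.86. AU-S minus AU-NS was 0.44 (SE 0.21, unadjusted p = 0.0544, adjusted p = 0.623 with limma) and was not called.

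Mgll probesets ranked the rats alike only in part. With group means removed, 1375247_at correlated with 1370831_at at r = 0.47 (permutation p = 0.00577, adjusted p = 0.0274) and rho = 0.42 (permutation p = 0.0252, adjusted p = 0.0809), and r was 0.46 without the 2 farthest arrays. With 1388644_at it correlated at r = 0.31 (permutation p = 0.123, adjusted p = 0.282), and 1370831_at with 1388644_at at r = 0.10 (permutation p = 0.58, adjusted p = 0.612). For Cnr1 the correlation between probesets was r = 0.47 (permutation p = 0.0123, adjusted p = 0.0466) and rho = 0.47 (permutation p = 0.0118, adjusted p = 0.0748), falling to r = 0.37 without the 2 farthest arrays.

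Faah, the anandamide-degrading enzyme, was not called at either of its 2 probesets. At 1368717_at the AU-act arrays ran from 8.91 through 9.22 to 9.47 and the AI-act arrays from 8.86 through 9.16 to 9.43. The arrays overlapped over nearly the whole range, although 13 of 16 AU-act arrays were above the AI-act mean. The difference was 0.12 (SE 0.06, 95% confidence interval 0.00 to 0.23, unadjusted p = 0.0484, adjusted p = 0.251 with limma). It was 0.13 after S and 0.10 after NS training. This probeset also correlated with the Gapdh and beta-actin control difference, at r = -0.49 (permutation p = 0.00477, adjusted p = 0.0274) and rho = -0.41 (permutation p = 0.0256, adjusted p = 0.0809), and the difference was 0.03 with that covariate. Of all probesets 6.60% had an r as low. With the hexokinase control difference r was -0.16 (permutation p = 0.394, adjusted p = 0.499) and rho -0.08 (permutation p = 0.683, adjusted p = 0.804), and the difference was 0.08 with that covariate.

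At 1384341_at AU-act arrays ran from 7.79 through 8.01 to 8.27 and AI-act arrays from 7.73 through 8.01 to 9.07. The difference was -0.06 (SE 0.08, adjusted p = 0.764). A single AI-S array set its sign: without AI-S replicate 8 the difference was 0.02. Both Faah probesets correlated at r = 0.12 (permutation p = 0.703, adjusted p = 0.703) and rho = 0.42 (permutation p = 0.0235, adjusted p = 0.0809), and r was 0.04 without the 2 farthest arrays. Their gap differed by -0.17 between AU-act and AI-act rats (permutation p = 0.0214, adjusted over 5 pairs p = 0.0534). The same array weighed on this value: without AI-S replicate 8 the gap differed by -0.09 (permutation p = 0.0415, unadjusted), and with each array left out in turn it ran from -0.19 to -0.09, with unadjusted permutation p from 0.00848 to 0.0415.

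The training protocol itself changed no member at the threshold used. In AI rats the S minus NS differences of the 7 probesets ran from -0.11 (Cnr1 1387674_at) to 0.21 (Faah 1384341_at), and in AU rats from -0.16 (Cnr1 1387674_at) to 0.44 (Mgll 1370831_at). limma called 0% of all probesets in either comparison, with 662 and 1316 of 16204 at an unadjusted p under 0.05, and none of these were members. SAM, the permutation statistic of the study's methods, called 0 and 1 probesets. Within a protocol limma called 0% of probesets for AU-NS against AI-NS (1858 at an unadjusted p under 0.05, 410 by SAM, no member among the latter). For the interaction the count was 0% as well, with 396 at an unadjusted p under 0.05 and no member among them.

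The S minus NS differences of Cnr1 were -0.10 at 1369677_at and -0.11 at 1387674_at in AI rats, and -0.11 and -0.16 in AU rats. All 4 of these 95% confidence intervals included 0. In AU rats 7 of 8 AU-S arrays lay below the AU-NS mean at 1369677_at and 6 of 8 at 1387674_at.

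Other genes of the endocannabinoid system were read at the brightest probeset of each, from a list of 42 genes of which 28 were measured. Between AU-act and AI-act rats 1 gene was higher and 0 were lower, or 3.57%, against 2.36% of all 9041 named genes at their brightest probeset. The median difference of the 28 genes was 0.05 against 0.00 over all genes. Of the 28 genes 19 were positive, beside 53.3% of all probesets. With any probeset of a gene counted, 1 gene was again higher and 0 were lower. The gene called was Gnai1, an inhibitory G protein alpha subunit of the kind CB1 couples to, at 0.31 (SE 0.08, adjusted p = 0.0108). Like Cnr1 1387674_at it was not called with the RNA controls as covariates, at 0.17 (adjusted p = 0.403) with Gapdh and beta-actin and 0.10 (adjusted p = 0.814) with hexokinase. These covariates left only 1 and 0 of all 16204 probesets called, so this loss is not particular to the 2 genes.

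Among the G proteins and effectors of CB1, 7 of 9 were measured and 1 was called. Cacna1b, the N-type calcium channel subunit that CB1 inhibits at terminals, differed by 0.10 (adjusted p = 0.181), Kcnj6, a G protein-gated potassium channel subunit, by 0.07 (adjusted p = 0.325), and the inhibitory subunit Gnai2 by -0.06 (adjusted p = 0.768). Of the receptors and their binding proteins, 3 of 10 were measured and none was called. Gprasp1, which sorts receptors to lysosomes, differed by 0.07 (adjusted p = 0.299), Sgip1, which slows CB1 internalization, by 0.04 (adjusted p = 0.806), and Cnrip1, which binds the CB1 tail, by -0.01 (adjusted p = 0.940). The less bright Sgip1 probeset differed by 0.12 (SE 0.05, unadjusted p = 0.0153, adjusted p = 0.136 with limma).

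Of the enzymes that make or break down 2-AG, 6 of 7 were measured and none was called. Plcb1, the phospholipase C that supplies diacylglycerol downstream of Gq, came nearest at 0.10 (SE 0.03, adjusted p = 0.0778). Abhd12, another 2-AG hydrolase, differed by 0.10 (adjusted p = 0.479), and Plcb4 by 0.07 (adjusted p = 0.662). Daglb, the other diacylglycerol lipase, differed by -0.01 (adjusted p = 0.943) at its brighter probeset. Its other probeset differed by 0.13 (SE 0.06, unadjusted p = 0.0307, adjusted p = 0.199 with limma). Abhd6, a postsynaptic 2-AG hydrolase, differed by 0.04 (adjusted p = 0.667) at its brighter probeset. The other Abhd6 probeset differed by -0.27 (SE 0.12, unadjusted p = 0.0292, adjusted p = 0.193 with limma), and by -0.41 after S training (adjusted p = 0.404).

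Of the genes that make, break down or carry anandamide, 6 of 8 were measured, 2 were positive and none was called. Fabp5 and Fabp3, fatty acid-binding proteins, differed by -0.13 (adjusted p = 0.409) and -0.13 (adjusted p = 0.474), and Naaa, a lysosomal amidase, by -0.03 (adjusted p = 0.699). Among receptors and G proteins that drive 2-AG release, 6 of 8 were measured and none was called. Gnaq, the Gq alpha subunit, differed by 0.39 (SE 0.15, adjusted p = 0.137), the muscarinic receptor gene Chrm1 by 0.07 (adjusted p = 0.571) and the scaffold gene Homer1 by 0.07 (adjusted p = 0.602). The less bright Homer1 probesets ran from -0.26 to 0.16, and none was called.

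**Figure D5:**
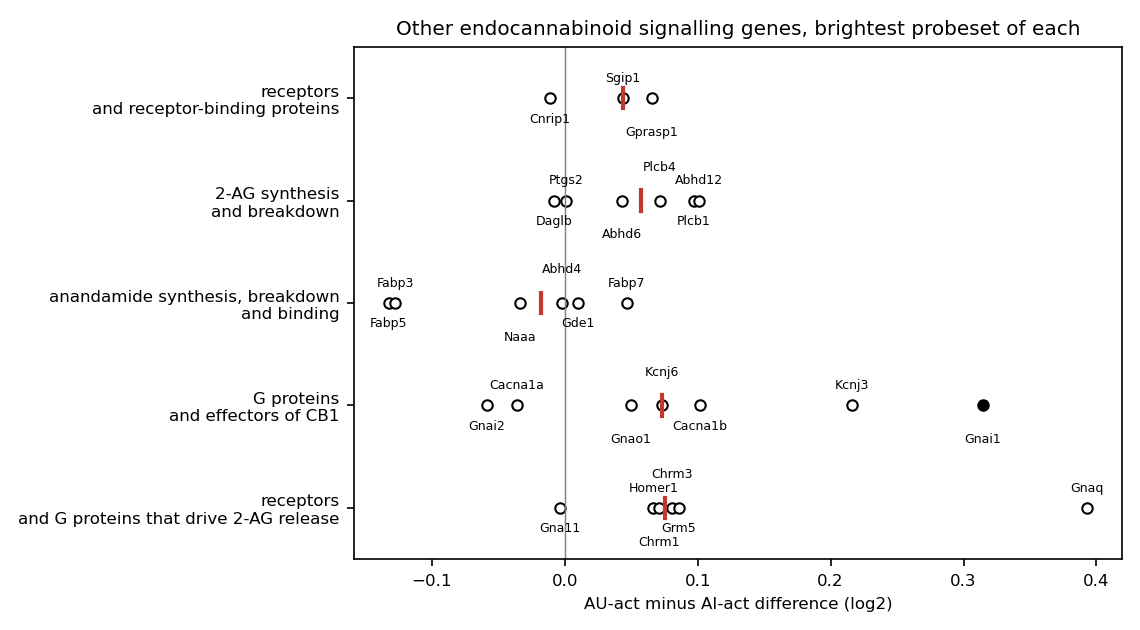
AU-act minus AI-act difference (horizontal axis, log2) of 28 other endocannabinoid signalling genes by role, at the brightest probeset of each, with the median of each role as a red bar. The filled point is Gnai1 at 0.31, the gene called, and Gnaq at 0.39 was not called.

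The probesets that varied most like each member were sought over the 31 arrays after group means were removed, among probesets naming 1 other gene. For the brightest Cnr1 probeset, 1369677_at, they were Etl4 (r = 0.77), Kcnc2 (0.76), Hsd17b7 (0.75), Dpp10 (0.75) and Homer1 (0.75). For the called probeset 1387674_at they were Atrx (r = 0.85), Prkacb (0.83), Gpcpd1 (0.80), Purb (0.80) and Cntnap2 (0.79), and the 2 lists shared no gene. For Mgll 1375247_at they were Shank3 (0.83), Rogdi (0.83), B3gat2 (0.82), Adgrl1 (0.81) and Prdx6 (0.80), and for Faah 1368717_at Eftud2 (0.78), Sgta (0.77), Gpi (0.76), Trappc9 (0.75) and Gnb2 (0.75). These correlations are a description of arrays that varied in their RNA controls and marker levels. The Gapdh and beta-actin difference ran from 1.28 to 1.72 in AU-act and from 1.47 to 1.92 in AI-act arrays. The part of this variation in the correlations was not tested.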

How the data were processed

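The authors hybridized CA3 RNA of each rat to an Affymetrix rat expression array, removed 1 outlying array and deposited gcRMA values (background corrected, quantile normalized, summarized) on the log2 scale; the gcRMA version is not given in the sources used here. Groups came from the sample titles. Probesets were named from the platform annotation. All 16204 probesets of the deposited table had a mean of at least 5.0002, so the study's limit of 4 removed none here. The study describes an array with more probesets, so the deposited table holds only part of it. Genes not measured here may be absent for low signal, which was not tested. Percentiles and called shares refer to the 16204 probesets. Groups were compared with limma 3.58.1 in R 4.3.3 (lmFit, eBayes, two-sided), on the compared groups alone, with Benjamini-Hochberg adjustment over all probesets and a threshold of 0.05 pooled and 0.1 otherwise. Permutation tests used 100000 resamples, or all of them within a protocol; correlations were permuted within groups. All member probesets are named. Of the pathway list, genes past the threshold and the 3 of each role with the smallest adjusted p are named. Some others (Gnai2, Daglb, Abhd6, the less bright probesets of Sgip1, Daglb, Abhd6 and Homer1, and the likeness of 1387674_at) were added after their values were seen. So was the comparison of probesets of 1 gene. The members and lists were chosen with earlier results of these data known. Scripts were tested on simulated data. Arrays give no counts, so their number limits the precision. Alternatives were a limit of 6, no limit, quantile normalization, centring on array medians, a prior with intensity trend and robust fit, weighted arrays, a replicate block, RNA control, dissection and CCK marker covariates, SAM (coded by hand, 100 permutations, not for the interaction), other choices of probeset or fit, and each array left out.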

Additional observations from a re-analysis of the deposited data

Results flagged for a closer look

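In 28 groups of 7 or 8 arrays (7 probesets in 4 groups), 2 arrays stood far from the rest of their group, both at Faah 1384341_at; chance flags about 1 in 20 groups. AI-S replicate 8 was at 9.07 on the log2 scale with the next array at 8.26, and this gap was 0.671 of the group's range. AI-NS replicate 8 was at 7.73 with the next at 7.93, a gap of 0.586 of the range. AI-S replicate 8 was not high at the other Faah probeset, where it read 8.92 in a group from 8.90 to 9.43.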

How the results depend on the processing

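The 7 probesets gave 1400 values under alternative settings. Of these, 1396 kept their direction and side of the threshold or were uncalled in both. A call was lost by 2 and gained by 2, and 0 called values reversed. Of 1354 values that were never called, 77 changed sign. The setting with no limit repeated the main fit, as all probesets passed the limit of 4, so its values could not change. The member count between AU-act and AI-act, 1, became 0 with the Gapdh and beta-actin covariate, 0 with the hexokinase covariate and 0 at the brightest probesets, and stayed at 1 with each array left out. Between AU-S and AI-S it was 0 and became 1 with array weights (Cnr1 1387674_at, 0.45, adjusted p = 0.0473) and 1 with SAM (0.36, adjusted p = 0.0860); adjusted p ran from 0.0473 to 0.952 over the settings, and the hexokinase covariate gave -0.04. The pathway count, 1, became 0 with either RNA covariate and 2 with array weights, with dentate granule and CA1 scores and with SAM, and ran from 1 to 2 with each array left out; the second gene was Plcb1 each time (2 without AI-NS replicate 4, AU-NS replicate 5 or AI-S replicate 7). The cause was not tested.

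The RNA control difference was -0.14 pooled, -0.11 within S (exact permutation test, p = 0.0502), -0.18 within NS, -0.07 for Gapdh, -0.21 for beta-actin and -0.38 for hexokinase. The Cnr1 gap ran from 0.28 to 0.34 with each array left out, with permutation p at most 0.001. Arrays of the same replicate number correlated between -0.47 and 0.31 over probesets, and not every pair was above 0.1. Between AI-NS and AU-NS, 2 of 7 arrays matched best with their own number, the most of any 2 groups. The rats were thus not treated as paired, although such correlations cannot exclude pairs or shared runs. The study drew its rats from separate behavioral runs, which the sample titles do not give. With a replicate block the Cnr1 1387674_at difference was 0.39 (limma adjusted p = 0.0111), 591 probesets were called in place of 893, and no member call changed. Over all probesets SAM called 1777 in place of 893. Between AU-S and AI-S the count, 67, ran from 0 to 565 over the settings, and between AU-NS and AI-NS it was 0, but 40 with array weights, 163 in a fit over all 4 groups and 410 by SAM.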
